A study of Mus musculus with 2 samples.

Results

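Secreted Wnt proteins, the receptors that bind them and the secreted proteins that hold them back were followed across the cell types of the dorsal root ganglion (DRG), the cluster of sensory neurons beside the spinal cord. The set was chosen by gene symbol alone. It took every symbol of the form Wnt, Fzd, Sfrp, Dkk or Rspo with its number, and Notum, Wif1, Frzb, Lrp5 and Lrp6, which gave 46 of the 32285 genes in the deposited feature list. They are 19 Wnt ligands, 10 Frizzled receptors, 2 LRP co-receptors, 4 R-spondins and 11 antagonists. Single cells came from mouse DRG of all axial levels at postnatal day 4, with 1 library for each of 2 genotypes. The library called flox here came from Ptges3 flox/flox mice, for which the labels name no Cre. The library called cKO came from Dhh CRE+, Ptges3 flox/flox mice, so the floxed Ptges3 alleles are shared by both and the Cre driven by Dhh, a gene of the Schwann cell lineage, is the labelled difference. Ptges3 encodes p23, a co-chaperone of HSP90. The sources used here do not say how many animals each library pooled, or their sex.

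Wnt proteins are lipid-modified signals that act over short distances. In the canonical branch a Wnt binds a Frizzled receptor together with Lrp5 or Lrp6, beta-catenin escapes degradation, and TCF and LEF factors then switch on targets such as Axin2, Nkd1 and Lef1. R-spondins strengthen this signal by keeping Frizzleds on the cell surface. Secreted Frizzled-related proteins (Sfrp genes and Frzb) and Wif1 bind Wnts, Dickkopf proteins (Dkk1, Dkk2 and Dkk4) block Lrp5 and Lrp6, and Notum removes the lipid that Wnts need.

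Each cell was assigned to a class by its own markers, and a gene's UMIs (unique molecular identifiers, each marking 1 captured RNA molecule) were added up per class and library. A level is that sum scaled to the UMI total of the class, in CPM. Because the 3′ tags are not per length, levels of different genes are not ranked against each other. The gates found 1573 flox and 3079 cKO neuron-like cells, 3059 and 1925 peripheral glia-like cells, 1204 and 1066 fibroblast-like cells, 160 and 145 endothelial-like cells, 117 and 157 mural-like cells, and 424 and 163 macrophage-like cells. Markers of the central nervous system went with the genotype label: 401 flox and 0 cKO cells passed the oligodendrocyte gate, and 157 flox and 1 cKO cell passed the astrocyte gate. With 1 library per genotype no test between the libraries was possible and none was made. All intervals are 95% and cover counting error only, not the spread between animals. The flox library was deeper, with a median of 6886 UMIs per used cell against 4320 (4319.5) in the cKO library, and 23 cell barcodes occurred in both libraries (16 among cells that passed the filters). Ptges3 itself was at 249.8 CPM in flox and 125.5 CPM in cKO peripheral glia-like cells, a log2 ratio of -0.99 (-1.10 to -0.89), and at 275.7 and 392.1 CPM in neuron-like cells. In fibroblast-like cells it was at 186.9 and 229.3 CPM (0.30, 0.19 to 0.40). It was also higher in cKO endothelial-like (0.62), mural-like (0.58) and macrophage-like cells (0.31). The sources used here do not name the exons that the floxed allele loses, so the 3′ tags may lie outside them.

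Among the 46 members, 34 reached at least 100 UMIs over both libraries in at least 1 class and are described below. The other 12 had from 0 UMIs (Dkk4) to 139 UMIs (Wnt7a) over all cells: Wnt1, Wnt3a, Wnt7a, Wnt7b, Wnt8a, Wnt8b, Wnt9b, Wnt10a, Wnt10b, Fzd10, Dkk1 and Dkk4. The heat map of levels shows that many members were found in some classes and near 0 in others, in both libraries.

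**Figure D1:**
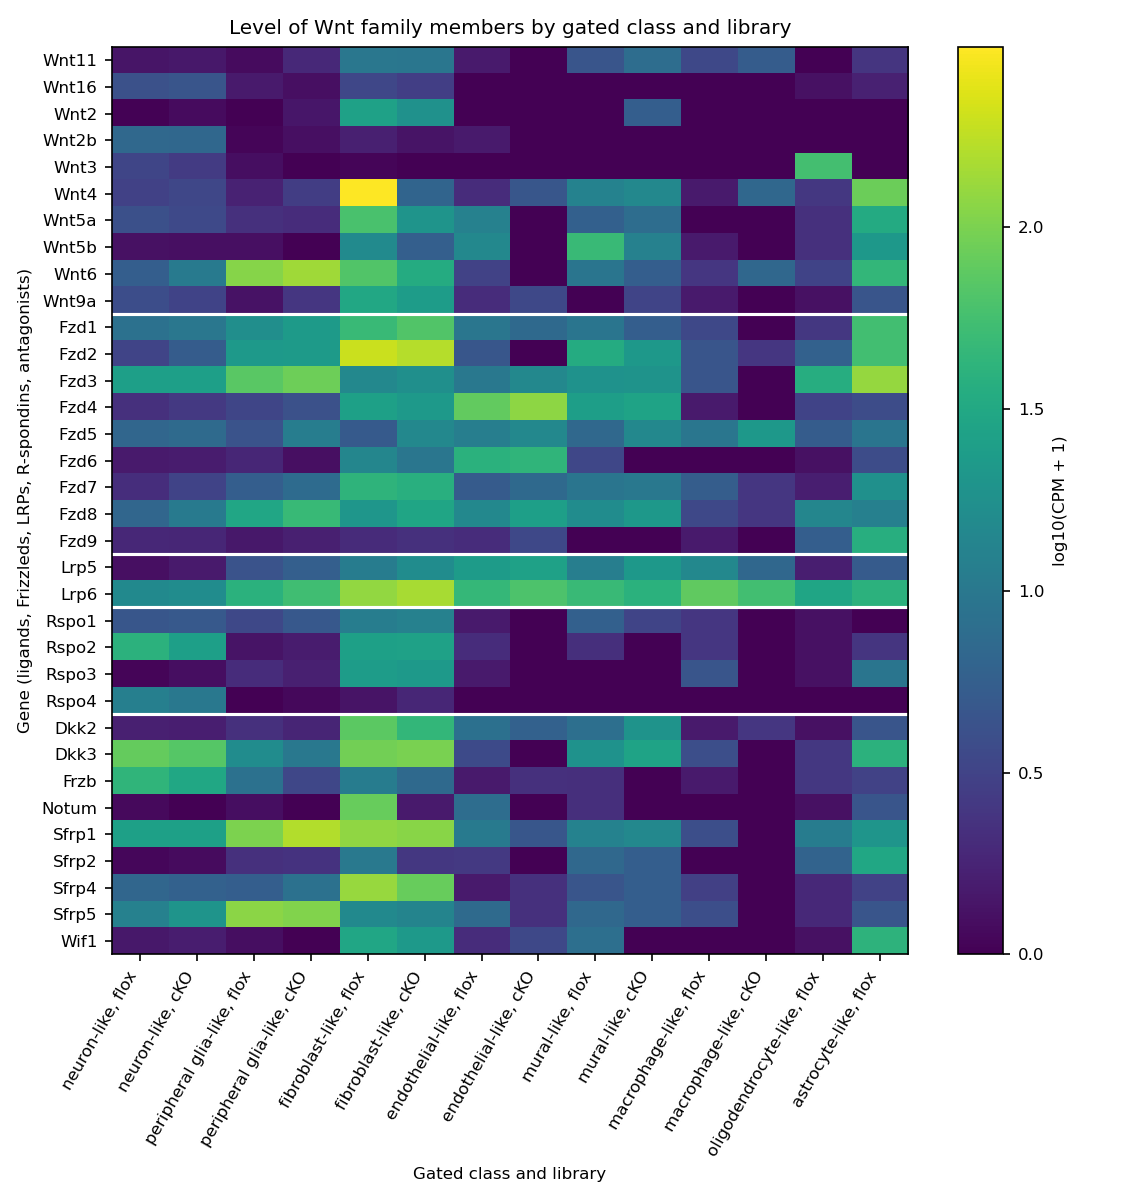
Levels of the 34 described members (rows, grouped as ligands, Frizzleds, LRPs, R-spondins and antagonists) in each gated class and library (columns), as log10 of CPM plus 1. Wnt4 is brightest in flox fibroblast-like cells (312 CPM) and dark in cKO fibroblast-like cells (5.34 CPM), while Wnt6 and Sfrp5 are bright in peripheral glia-like cells of both libraries.

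Wnt4 and Notum had the lowest cKO over flox ratios among the measured members of fibroblast-like cells. Wnt4, a ligand best known from kidney and gonad development, had 3415 UMIs in flox and 31 UMIs in cKO fibroblast-like cells, which are 312 CPM (302 to 323) and 5.34 CPM (3.63 to 7.58). The log2 ratio was -5.87 (-6.43 to -5.36). A Wnt4 UMI was found in 27.0% of flox and 2.44% of cKO fibroblast-like cells, against 0.24% and 1.23% of macrophage-like cells, a class not known for Wnt4, at median depths of 4409 (4408.5) and 3724 UMIs. After each fibroblast-like cell was thinned to 1000 UMIs the shares were 14.95% and 0.56%, with no cell too shallow to be thinned. The gene (ENSMUSG00000036856) lies on the plus strand of chr4:137277489-137299726 in GRCm38. Its promoter is shown because the result turns on this gene, from RefSeq on GRCm38.p6, chr4:137277385-137277684 on the plus strand (250 bases before to 50 after the start, read 5′ to 3′, with no matched motif to set in capitals):
Wnt4 promoter: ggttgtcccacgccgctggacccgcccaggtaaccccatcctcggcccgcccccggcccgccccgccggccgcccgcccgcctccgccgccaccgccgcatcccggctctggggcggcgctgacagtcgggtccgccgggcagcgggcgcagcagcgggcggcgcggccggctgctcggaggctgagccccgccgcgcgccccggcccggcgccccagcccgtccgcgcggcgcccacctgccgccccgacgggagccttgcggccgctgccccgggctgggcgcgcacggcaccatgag
The motif searched, the core CTTTGA or its reverse TCAAAG that TCF and LEF factors bind, does not occur in these 300 bases. The gene interval given above, from another annotation, begins upstream of the RefSeq start. By that interval the bases from 137277489 on lie inside the gene. Promoters were matched for 29 of the 46 members (32 promoters), and 5 of those 32 held the core, against 16.0% of 32851 promoters of the same length. The related SOX core CTTTGT or ACAAAG, which shares its first letters with the TCF and LEF core but ends differently, occurred in 6 of the 32, against 18.7% of all. Both strands were searched, and a match is a description only.

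Nearly all Wnt4 UMIs of the fibroblast-like cells lay in a group of cells that the cKO library did not have. When all cells were clustered with the 46 members left out, fibroblast-like cells fell mainly into clusters 8, 9, 12 and 17. Cluster 17 held 304 flox and 0 cKO fibroblast-like cells (339 flox and 3 cKO cells before gating). Its leading genes outside the set were Col4a6, Col13a1, Vamp5, Pltp, Slc6a13, Ptn, Col4a5, A2m, Bmp2 and Ramp3. By sub-gate 178 of the 304 cells were meningeal fibroblast-like (Slc6a13, Crabp2, Aldh1a2, Foxc2 and Slc47a1), and of these markers Slc6a13 was at 766.6 CPM and Slc47a1 at 0.29 CPM, so the cluster is called by its number. Wnt4 was at 973.1 CPM (940.2 to 1007) in cluster 17, where 285 of 304 cells had a UMI. In clusters 8, 9 and 12 it was at 27.5, 5.28 and 3.32 CPM in flox and 7.93, 4.86 and 2.74 CPM in cKO cells. Cluster 17 held 3323 of the 3415 flox Wnt4 UMIs (97.3%).

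Notum, the secreted enzyme that strips the lipid from Wnts, was found in the same cells. It had 883 UMIs in flox and 3 UMIs in cKO fibroblast-like cells (80.7 and 0.52 CPM, log2 ratio -7.29, -9.57 to -5.74), and 878 of the 883 lay in cluster 17. There it was at 257.1 CPM, and 192 of 304 cells had a Notum UMI, of which 189 also had a Wnt4 UMI. Cells with a Notum UMI were deeper (median 10613 UMIs) than those without (6923 UMIs). Outside cluster 17 no fibroblast cluster of either library exceeded 1.09 CPM. Notum (ENSMUSG00000042988) lies on the minus strand of chr11:120653788-120661175.

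Like cluster 17, the oligodendrocyte-like and astrocyte-like cells came from the flox library, except for 1 cKO astrocyte-like cell. Within cluster 17 the oligodendrocyte markers had from 0 (Opalin and Hapln2) to 31 UMIs (Mobp), except Cldn11 at 337 UMIs (98.7 CPM). The astrocyte markers there had from 0 (Ntsr2) to 32 UMIs (Gfap), except Gjb6 at 515 UMIs (150.8 CPM). The fibroblast markers Col1a1 and Dcn were at 8292 and 3544 CPM. With 1 library each, genotype and library cannot be told apart. Ratios for fibroblast-like cells are therefore given with and without the clusters that drew under 5% of their cells from 1 library (an alternative added once the clusters were known). That removed 318 flox and 20 cKO fibroblast-like cells, 304 of them from cluster 17. Without them Wnt4 was at 12.2 and 5.38 CPM, a log2 ratio of -1.18 (-1.82 to -0.58), and Notum, with 5 and 3 UMIs, was no longer measured. This remaining Wnt4 difference was found in cluster 8 (68 and 18 UMIs, -1.79, -2.63 to -1.03), where 24 flox cells had a Wnt4 UMI. The makeup of cluster 8 also differed between the libraries, as given below. Wnt4 did not differ beyond counting error in cluster 9 (-0.12, -1.53 to 1.15) or cluster 12 (-0.28, -2.40 to 1.84).

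**Figure D2:**
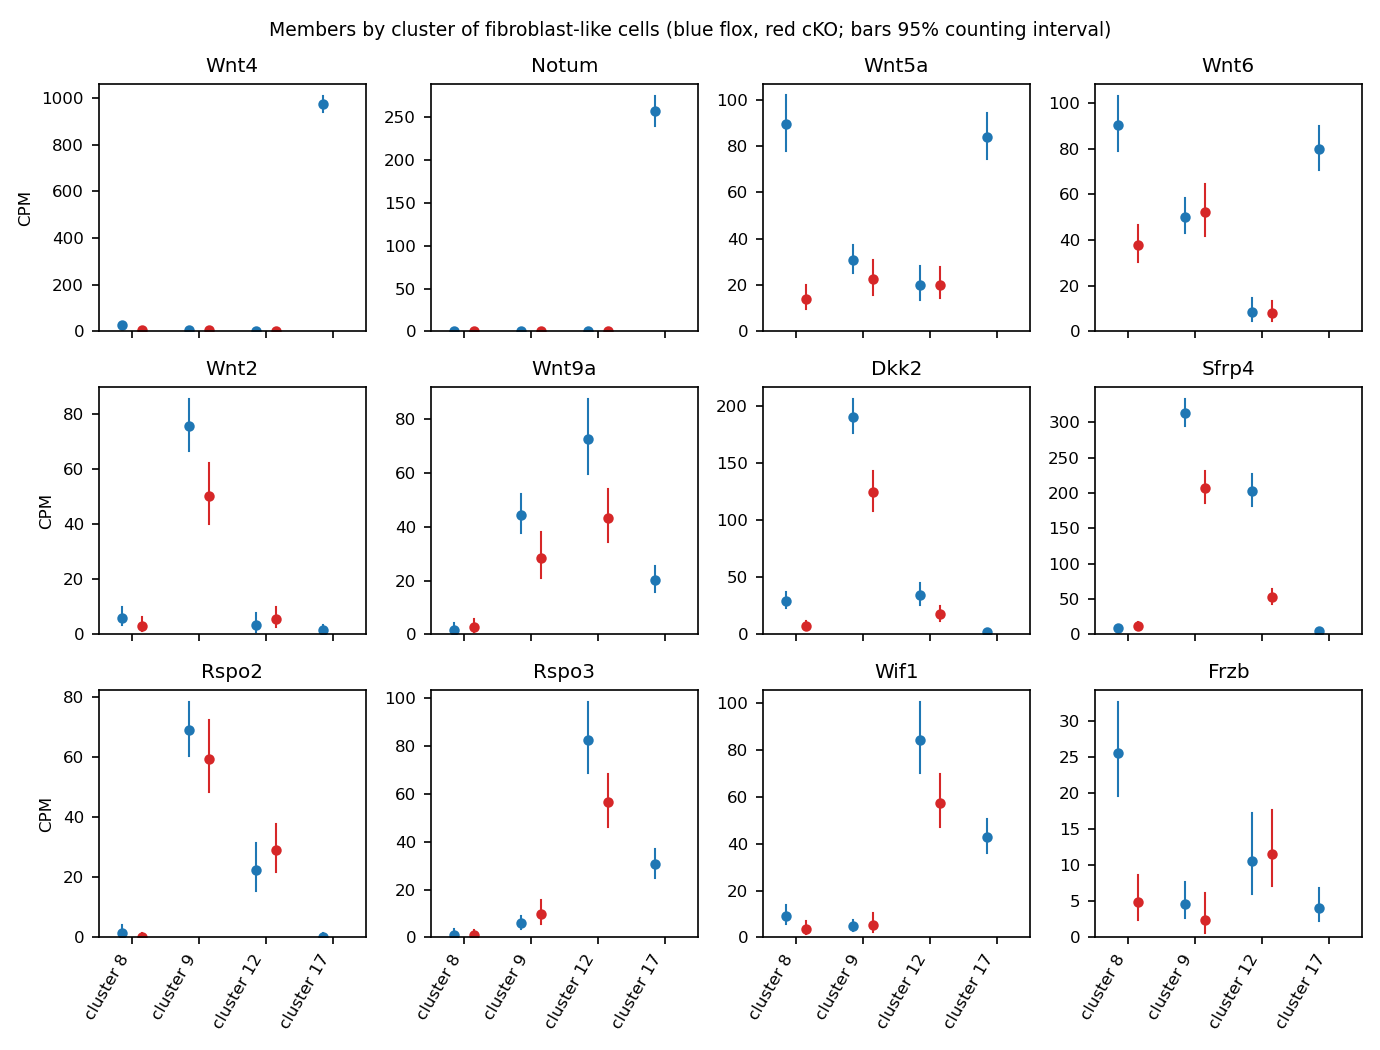
Levels in CPM of 12 members in the 4 main clusters of fibroblast-like cells, 1 panel per gene (blue flox, red cKO, bars the 95% counting interval). Wnt4 and Notum stand at 973.1 and 257.1 CPM in cluster 17, which has no cKO cells, Dkk2, Wnt2 and Sfrp4 are highest in cluster 9, and Rspo3 and Wif1 in cluster 12.

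Other ligands marked the remaining fibroblast clusters. Wnt5a, which signals mainly without beta-catenin, was at 58.9 CPM in flox and 18.4 CPM in cKO fibroblast-like cells (log2 ratio -1.68, -1.99 to -1.38) and was also lower without the 1-library clusters (-1.38, -1.71 to -1.06). It differed in cluster 8, which is led by Ccl11, Col2a1 and Apod and is mostly endoneurial fibroblast-like: Wnt5a was there at 89.3 CPM in 294 flox cells and 14.1 CPM in 443 cKO cells (-2.66, -3.25 to -2.12). The makeup of cluster 8 also differed between the libraries. Its meningeal markers Slc6a13, Foxc2, Crabp2 and Aldh1a2 were at 157.2, 60.6, 64.3 and 29.1 CPM in flox and 27.8, 18.1, 34.8 and 1.76 CPM in cKO cells. Of its endoneurial markers, Apod was at 6766 and 3645 CPM and Ccl11 at 1821 and 1939 CPM. The part of this makeup in the ratios of cluster 8 was not tested. In cluster 12 Wnt5a was at 19.9 and 20.3 CPM, which did not differ beyond counting error. Wnt5b, a close relative, was at 14.6 and 4.65 CPM in all fibroblast-like cells (-1.65, -2.3 to -1.06). Of its 160 flox UMIs 124 were in cluster 17, and without the 1-library clusters the ratio was -0.04 (-0.82 to 0.72).

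Wnt2, Wnt9a and Wnt10b were ligands of the fibroblast-like cells. Wnt2 was at 75.7 CPM in flox and 50.4 CPM in cKO cells of cluster 9 (log2 ratio -0.59, -0.96 to -0.22), which is led by Ly6a, Fmo2 and Emilin2 and is mostly epineurial fibroblast-like. It did not exceed 6.06 CPM in any other fibroblast cluster. Wnt10b was also found mainly in cluster 9, at 18.5 and 14.6 CPM, and had 0 UMIs in cluster 8 of either library. Wnt9a was at 44.3 and 28.5 CPM in cluster 9 and at 72.3 and 43.2 CPM in cluster 12, which is led by Slc47a1, Ecrg4 and Gas2. Its log2 ratios there were -0.63 (-1.14 to -0.15) and -0.74 (-1.18 to -0.31). Some subtype markers of these clusters were lower in cKO too: Clec3b (975.4 and 612.1 CPM) and Pi16 (519.98 and 306.6 CPM) in cluster 9, and Foxc2 (142.7 and 73.9 CPM) and Slc47a1 (367.6 and 269.9 CPM) in cluster 12. Others were closer, such as Mfap5 in cluster 9 (3299 and 3046 CPM) and Crabp2 in cluster 12 (894.5 and 742.8 CPM), and their part in the ratios was not tested. Wnt11 was at 8.78 and 8.61 CPM in fibroblast-like cells and did not differ beyond counting error.

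Wnt6, a ligand known from neural crest induction, was the only Wnt ligand measured in peripheral glia-like cells. It was at 110.0 CPM in flox and 136.8 CPM in cKO peripheral glia-like cells, found in 36.9% and 32.9% of them (12.2% and 13.5% when thinned), against 0.71% and 1.84% of macrophage-like cells. Its promoter, chr1:74771642-74771941 on the plus strand (RefSeq, GRCm38.p6), is shown because this gene serves both glia and fibroblasts, and it holds neither motif:
Wnt6 promoter: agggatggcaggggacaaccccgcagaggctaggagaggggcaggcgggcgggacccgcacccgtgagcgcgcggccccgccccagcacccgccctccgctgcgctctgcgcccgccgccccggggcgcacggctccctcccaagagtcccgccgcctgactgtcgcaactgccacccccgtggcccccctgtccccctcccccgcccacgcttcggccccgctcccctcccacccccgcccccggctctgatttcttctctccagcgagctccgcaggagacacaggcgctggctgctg
Among glia Wnt6 was high in cycling glia (262.0 and 254.9 CPM) and satellite glia-like cells (214.5 and 199.0 CPM, marked by Fabp7, Apoe and Kcnj10), and low in myelinating Schwann cell-like cells (9.16 and 10.3 CPM). Glia that passed no sub-gate had 187.2 CPM in flox and 126.7 CPM in cKO, a log2 ratio of -0.56 (-0.71 to -0.41). The ratio for glia as a whole changed direction with the weights of the sub-gates, and the part of makeup in it was not tested. It was 0.31 (0.21 to 0.42) with all cells, -0.32 when the sub-gates had the same weight in both libraries, and 0.80 without the 1-library clusters. Myelinating Schwann cell-like cells numbered 1174 in flox and 246 in cKO, and the summed level of the 8 myelinating markers, all of them found, was 63106 and 18074 CPM in glia. In fibroblast-like cells Wnt6 was at 64.6 and 33.6 CPM (-0.95, -1.18 to -0.71) and without the 1-library clusters at 56.3 and 33.1 CPM (-0.77, -1.02 to -0.52). The difference was found in cluster 8 (90.5 and 37.9 CPM, -1.26, -1.63 to -0.89), whose makeup also differed between the libraries. Wnt6 did not differ beyond counting error in cluster 9 (50.2 and 52.2 CPM) or cluster 12 (8.63 and 8.21 CPM). Perineurial cell-like cells, 76 flox and 71 cKO, had 215.1 and 116.8 CPM (-0.88, -1.42 to -0.37).

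**Figure D3:**
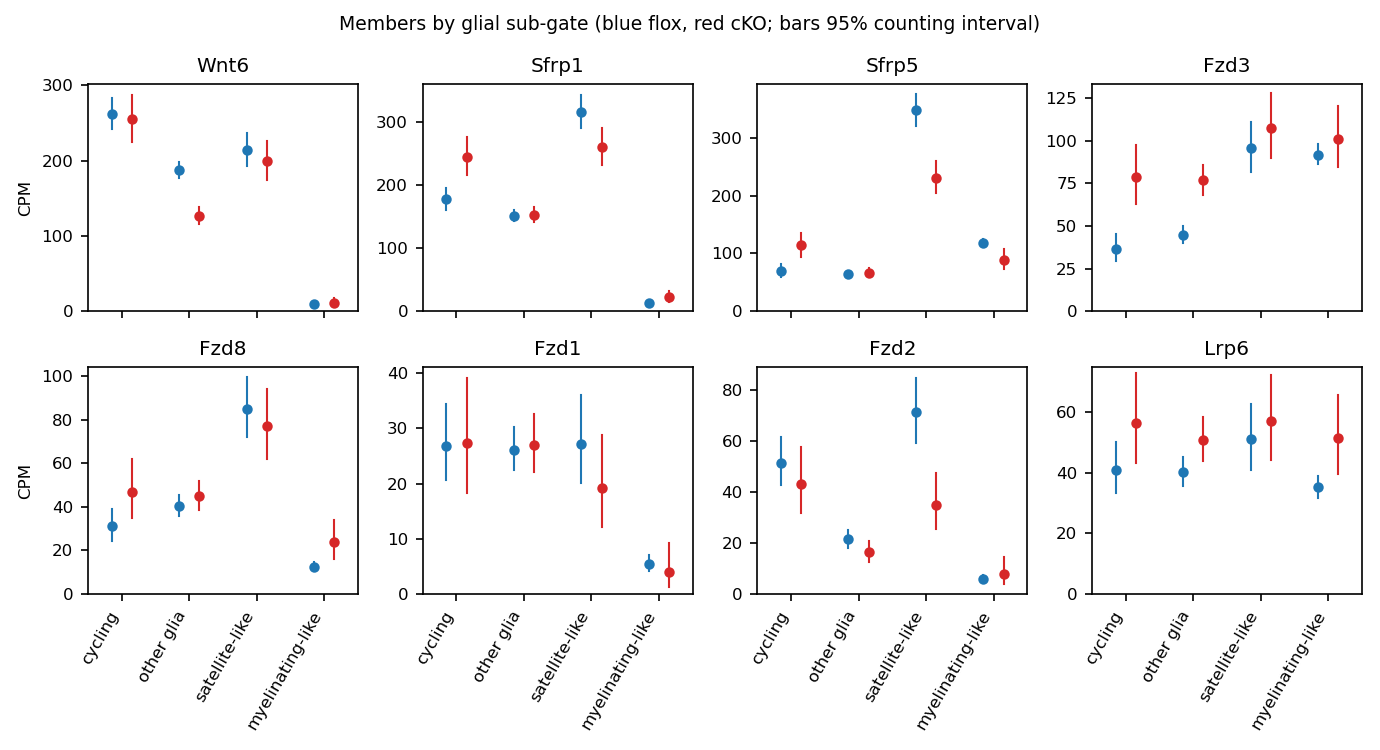
Levels in CPM of 8 members in the 4 glial sub-gates, 1 panel per gene (blue flox, red cKO, bars the 95% counting interval). Wnt6 and Sfrp1 are low in myelinating-like cells of both libraries (9.16 and 13.7 CPM in flox), whereas Sfrp5 and Fzd3 are not (117.6 and 92.0 CPM in flox).

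Wnt ligands were at low levels in sensory neurons, and several differed by neuron type. Wnt2b was at 5.97 and 5.86 CPM in neuron-like cells and at most 0.64 CPM in glia-like and fibroblast-like cells. It was highest in non-peptidergic nociceptor-like cells (Mrgprd, Lpar3 and Mrgprx1), at 12.5 and 12.1 CPM, and at most 2.98 CPM in the C-low-threshold mechanoreceptor-like, peptidergic and neurofilament gates. Wnt16 was at 3.17 and 3.56 CPM in neuron-like cells. Wnt9a, also a fibroblast ligand, had 196 and 105 UMIs in neuron-like cells without the 1-library clusters (2.84 and 2.12 CPM, -0.42, -0.78 to -0.07). Wnt5a was at 12.9 CPM in flox and 8.72 CPM in cKO neurofilament neuron-like cells (Nefh, Ntrk2, Ntrk3 and Pvalb; log2 ratio -0.56, -1.02 to -0.12) and at most 1.62 CPM in the other named neuron gates. Wnt7a followed the same gate, at 4.37 and 4.69 CPM, with 43 and 35 of its 51 and 43 neuronal UMIs there. Wnt4 in peptidergic nociceptor-like cells (Calca, Tac1 and Adcyap1) was at 7.32 and 3.75 CPM (-0.96, -1.66 to -0.31), and Wnt3 there at 5.89 and 3.32 CPM.

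Some ligand UMIs of the flox library came from cells with central nervous system markers. Wnt3 was at 55.8 CPM (48.0 to 64.6) in oligodendrocyte-like cells, where 96 of 401 cells had a UMI, with 0 UMIs in astrocyte-like cells and 5 in flox peripheral glia-like cells. Astrocyte-like cells had Wnt4 at 85.0 CPM, Wnt7a at 25.3 CPM and Wnt7b at 12.6 CPM. Mural-like cells, the smooth muscle and pericytes of vessels, had Wnt5b at 47.7 CPM in flox and 11.4 CPM in cKO (40 and 5 UMIs). The summed mural markers of that class, all 10 found, were at 30049 CPM in flox and 14064 CPM in cKO. Endothelial-like cells had 22 Wnt5a and 26 Wnt5b UMIs in flox and 0 of each in cKO, where 0 UMIs allow up to 3.69 CPM (3 UMIs). Summed fibroblast markers in the endothelial-like cells were at 943.8 and 309.8 CPM, mural markers at 670.5 and 280.3 CPM and peripheral glia markers at 1496 and 244.6 CPM, and Notum had 13 and 0 UMIs there. The part of these other cell types in the Wnt5a and Wnt5b counts was not tested. Astrocyte-like cells also had Wnt6 at 43.6 CPM and Fzd1 and Fzd2 at 54.1 CPM each, and oligodendrocyte-like cells Fzd3 at 34.9 CPM and Lrp6 at 28.4 CPM.

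Of the R-spondins, Rspo2, Rspo3 and Rspo4 were divided between neurons and fibroblasts, while Rspo1 was also found in glia. Rspo2 was at 39.6 CPM in flox and 24.6 CPM in cKO neuron-like cells, a log2 ratio of -0.69 (-0.78 to -0.59), and at most 0.53 CPM in peripheral glia-like cells. The difference was found in non-peptidergic nociceptor-like cells (71.5 and 44.0 CPM, -0.70, -0.87 to -0.54) and C-low-threshold mechanoreceptor-like cells (Th, Slc17a8 and Tafa4; 53.0 and 29.0 CPM, -0.87, -1.17 to -0.58). It was not found beyond counting error in peptidergic (9.32 and 9.24 CPM) or neurofilament (14.0 and 13.5 CPM) neurons. Whether the ratios of these gates differ from each other was not tested. Rspo4 was at 11.1 and 8.88 CPM in neuron-like cells, with 0 to 5 UMIs in glia-like and fibroblast-like cells of either library. It was at 15.4 and 9.82 CPM in peptidergic nociceptor-like cells (-0.65, -1.08 to -0.23) and at 7.42 and 10.0 CPM in non-peptidergic ones (0.44, 0.04 to 0.83), so these 2 gates lay on opposite sides of 0. Rspo3 was a fibroblast gene of clusters 12 (82.3 and 56.4 CPM) and 17 (30.5 CPM), with at most 1.06 CPM in neuron-like and peripheral glia-like cells. Rspo2 was found in cluster 9 (69.0 and 59.5 CPM). Rspo1 was at 10.3 and 11.4 CPM in fibroblast-like and 3.66 and 3.997 CPM in neuron-like cells. Without the 1-library clusters it was at 3.33 and 5.47 CPM in peripheral glia-like and 3.67 and 3.94 CPM in neuron-like cells.

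**Figure D4:**
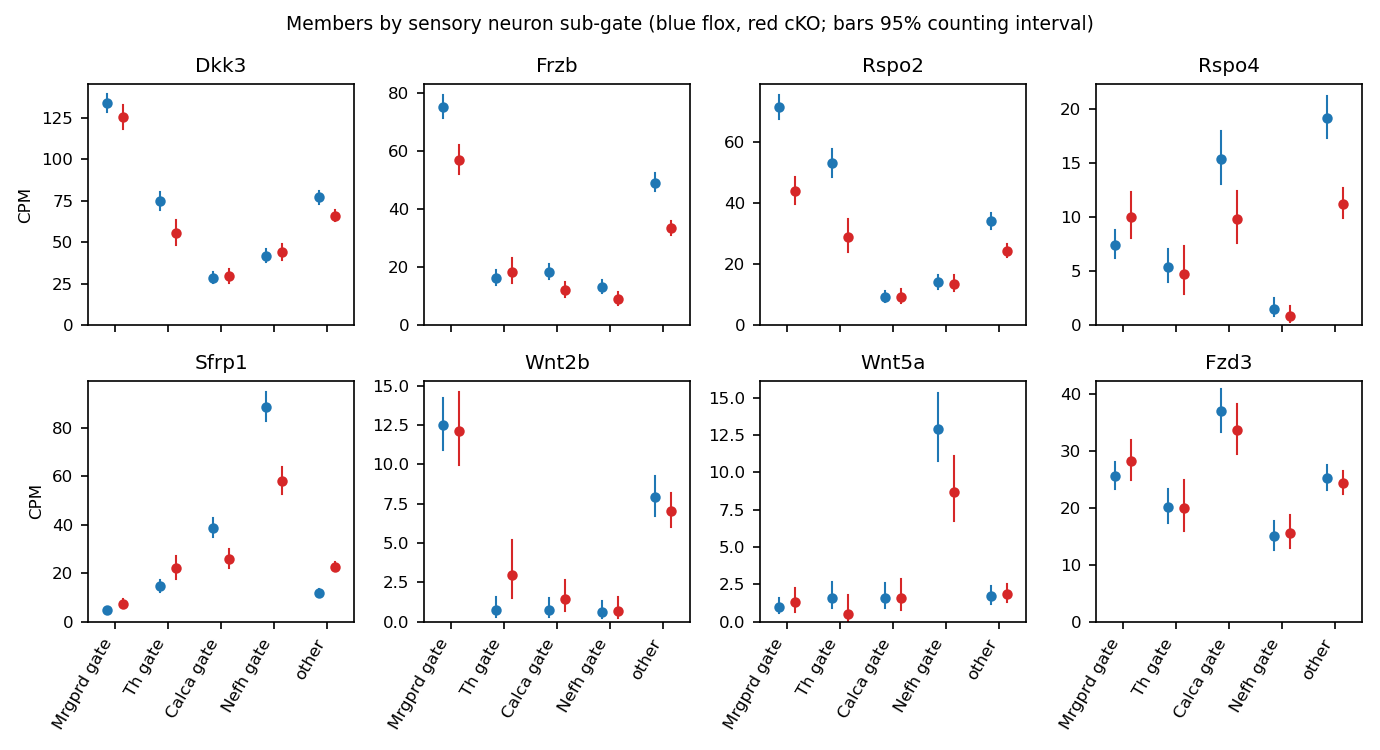
Levels in CPM of 8 members in sensory neuron sub-gates named by their first marker, 1 panel per gene (blue flox, red cKO, bars the 95% counting interval). Dkk3, Frzb, Rspo2 and Wnt2b are highest in the Mrgprd gate and Sfrp1 and Wnt5a in the Nefh gate, in both libraries.

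The Frizzled receptors differed in the classes where they were found. Fzd2 was at 195.0 CPM in flox and 164.9 CPM in cKO fibroblast-like cells (log2 ratio -0.24), 21.1 and 21.8 CPM in peripheral glia-like cells, and 2.23 and 4.29 CPM in neuron-like cells. Fzd3, which guides axons through planar polarity signalling, was at 71.2 and 86.2 CPM in peripheral glia-like, 24.9 and 24.7 CPM in neuron-like and 126.5 CPM in flox astrocyte-like cells. Fzd4, the receptor of the vessel signal Norrin, was at 77.2 and 116.8 CPM in endothelial-like cells (0.60, 0.21 to 0.98), with Lrp6 at 44.9 and 61.5 CPM, Fzd6 at 38.6 and 41.8 CPM and Fzd8 at 13.7 and 24.6 CPM there. Mural-like cells had Fzd2 at 33.4 and 20.4 CPM, Dkk3 at 17.9 and 27.3 CPM and Fzd4 at 23.8 and 27.3 CPM. Fzd9 was at 35.8 CPM in astrocyte-like cells and at most 4.63 CPM elsewhere in the flox library. Fzd1 was at 47.6 and 64.9 CPM in fibroblast-like cells (0.45, 0.25 to 0.64, and -0.06 without the 1-library clusters) and at 16.1 and 21.9 CPM in peripheral glia-like cells. Fzd8 was at 29.3 and 46.7 CPM in peripheral glia-like cells (0.67, 0.48 to 0.86, and 0.25 with the sub-gates weighted alike), where 84.9 and 76.9 CPM stood in satellite glia-like cells and 12.4 and 23.7 CPM in myelinating ones.

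Fzd5 was higher in cKO cells of several classes. It was at 3.30 and 10.5 CPM in peripheral glia-like cells (log2 ratio 1.67, 1.19 to 2.15), at 4.11 and 13.8 CPM in fibroblast-like cells (1.74, 1.20 to 2.303) and at 8.51 and 20.4 CPM in macrophage-like cells (17 and 14 UMIs). In fibroblast cluster 8 it had 2 flox and 23 cKO UMIs. In neuron-like cells, at 5.61 and 6.26 CPM, it did not differ beyond counting error. The co-receptor Lrp6 was found in all 6 classes compared, among them at 14.3 and 15.4 CPM in neuron-like, 38.6 and 52.6 CPM in peripheral glia-like, 123.6 and 148.2 CPM in fibroblast-like and 75.6 and 54.0 CPM in macrophage-like cells. Lrp5 was at 22.2 and 25.8 CPM in endothelial-like and 10.1 and 15.3 CPM in fibroblast-like cells (0.61, 0.19 to 1.02).

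The antagonists gave 38837 UMIs over all cells and differed in where they were found. Frzb (ENSMUSG00000027004, minus strand of chr2:80411970-80447625) was at 41.5 and 29.999 CPM in neuron-like cells, 7.48 and 2.40 CPM in peripheral glia-like cells and 10.1 and 6.20 CPM in fibroblast-like cells. Its log2 ratios were -0.47 (-0.56 to -0.38), -1.64 (-2.43 to -0.93) and -0.70 (-1.28 to -0.14), so it was lower in cKO cells of all 3 classes, each taken whole. Among fibroblast clusters the difference was found in cluster 8 (63 and 11 UMIs, -2.39, -3.47 to -1.46), whose makeup also differed between the libraries. Frzb did not differ beyond counting error in cluster 9 (16 and 4 UMIs) or cluster 12 (10.6 and 11.5 CPM). Within neurons it stood at 75.2 and 57.0 CPM in non-peptidergic nociceptor-like cells, and at most 18.4 CPM in the C-low-threshold mechanoreceptor, peptidergic and neurofilament gates. Its promoter, chr2:80447347-80447646 on the minus strand (RefSeq, GRCm38.p6), is shown as the member lower in all 3 classes, with the TCF and LEF core in capitals:
Frzb promoter: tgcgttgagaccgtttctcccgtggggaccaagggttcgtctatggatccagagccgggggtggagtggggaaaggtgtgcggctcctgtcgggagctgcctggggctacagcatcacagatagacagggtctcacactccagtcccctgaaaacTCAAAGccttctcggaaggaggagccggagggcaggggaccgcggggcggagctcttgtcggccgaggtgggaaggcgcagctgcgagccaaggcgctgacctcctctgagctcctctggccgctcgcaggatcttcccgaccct
The core starts at position -95 from the RefSeq start site. The gene interval given above, from another annotation, begins further upstream, so by that interval the core lies inside the gene. Dkk3, a secreted protein related to the Dickkopfs that is not known to block Lrp6, was at 78.9 and 67.4 CPM in neuron-like cells and 15.5 and 9.08 CPM in peripheral glia-like cells (-0.77, -1.17 to -0.39). With the sub-gates weighted alike the glial ratio was -0.12. Summed neuron markers in those glia were at 364.7 and 421.6 CPM, all 10 of them found.

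Sfrp1 and Sfrp5 were both highest in satellite glia-like cells and parted in myelinating Schwann cell-like cells. Sfrp1 was at 99.7 CPM in flox and 160.7 CPM in cKO peripheral glia-like cells (log2 ratio 0.69, 0.59 to 0.79). It was low in myelinating Schwann cell-like cells (13.7 and 22.1 CPM) and high in satellite glia-like (314.7 and 259.2 CPM) and cycling (176.8 and 243.6 CPM) glia. With the sub-gates weighted alike the ratio was 0.06, and without the 1-library clusters it was 0.80. Sfrp5 was at 113.8 and 103.3 CPM in all glia, at 347.6 and 230.8 CPM in satellite glia-like cells (-0.59, -0.80 to -0.38) and at 117.6 and 89.4 CPM in myelinating ones. Among neurons Sfrp1 marked the neurofilament gate, at 88.7 and 57.9 CPM (-0.61, -0.78 to -0.45), and the non-peptidergic gate had 4.74 and 7.31 CPM. In fibroblast-like cells Sfrp1 was at 118.8 and 111.4 CPM, and in cluster 12 at 263.4 and 146.7 CPM (-0.84, -1.07 to -0.62).

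Dkk2 and Sfrp4 were found mainly in fibroblast-like cells and were lower there in the cKO library. Dkk2 was at 190.7 CPM in flox and 124.5 CPM in cKO cells of cluster 9 (log2 ratio -0.62, -0.85 to -0.39), and at 29.5 and 7.49 CPM in cluster 8 (-1.98, -2.83 to -1.20), where the meningeal markers named above for that cluster were lower in cKO as well. Sfrp4 was at 313.1 and 207.7 CPM in cluster 9 (-0.59, -0.77 to -0.42) and at 203.1 and 53.1 CPM in cluster 12 (-1.94, -2.28 to -1.60). In cluster 17 they were at 2.34 and 4.98 CPM, and the ratios lay further from 0 without the 1-library clusters: Dkk2 was then at 104.6 and 44.1 CPM (-1.25) and Sfrp4 at 187.4 and 81.0 CPM (-1.21). Wif1 was found in clusters 12 (84.3 and 57.5 CPM) and 17 (42.8 CPM) and in astrocyte-like cells (40.0 CPM). Sfrp2 had 100 flox and 9 cKO UMIs in fibroblast-like cells, 61 of the 100 in cluster 17, and was not measured without it.

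Counted over the set, fibroblast-like cells had the most members lower in cKO. To count as measured, a member needed 50 UMIs in the 2 libraries together, and to count as higher or lower, a log2 ratio 0.5 or more from 0. In fibroblast-like cells 30 members were measured, 3 were higher (Fzd5, Fzd8 and Lrp5) and 11 lower (Wnt2, Wnt4, Wnt5a, Wnt5b, Wnt6, Frzb, Sfrp2, Sfrp4, Dkk2, Notum and Fzd6). Over all 11633 genes measured there, 8.53% were higher and 18.3% lower. The median log2 ratio of the members was -0.26, against -0.09 over all genes. Among the lower members, Notum (883 and 3 UMIs) and Sfrp2 (100 and 9 UMIs) reached 50 UMIs through the flox library. With so few cKO UMIs, a member that passes this limit can only be counted as lower. Without the 1-library clusters 28 members were measured, 2 higher and 13 lower, with 6.99% and 19.2% over all genes, and the medians were -0.45 and -0.14. Of the lower members Wnt4, Wnt5a, Wnt6, Wnt2, Dkk2, Sfrp4, Frzb and Fzd6 were lower under both counts. Fzd4, Fzd7, Wnt9a, Wnt10b and Sfrp5 were lower only without those clusters. Of these last members, Fzd4 (-0.54), Fzd7 (-0.68) and Wnt9a (-0.63) were lower within cluster 9. Wnt10b (-0.34, -1.09 to 0.36) and Sfrp5 (-0.12, -0.67 to 0.41) did not differ there beyond counting error. The remaining clusters still differed in weight: cluster 9 held 3407789 flox and 1646877 cKO UMIs, and cluster 12 held 1506956 and 1826783. The part of these weights in the counts was not tested.

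**Figure D5:**
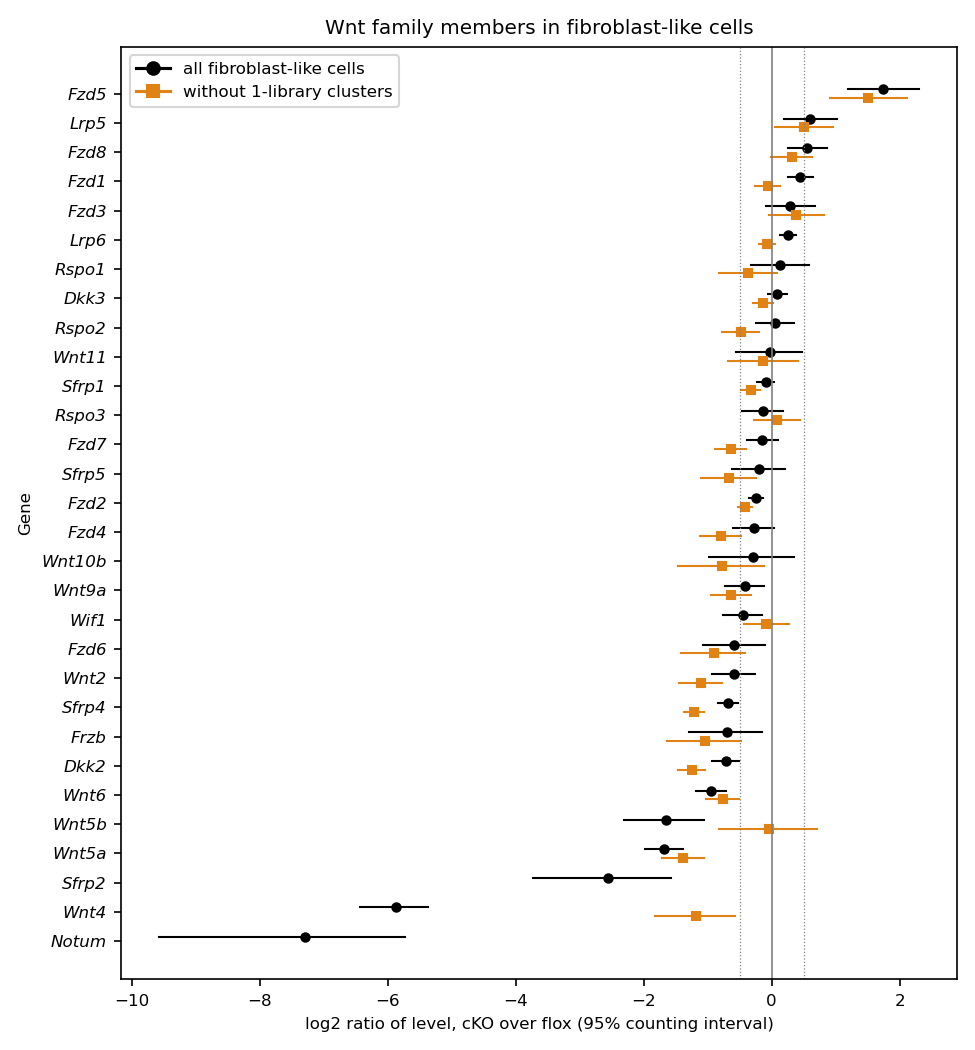
Log2 ratio of the level in cKO over flox fibroblast-like cells for the 30 measured members (vertical axis), with all cells in black and without the 1-library clusters in orange (bars the 95% counting interval, dotted lines at 0.5 either side of 0). Wnt4 moves from -5.87 to -1.18 and Wnt5b from -1.65 to -0.04, while Dkk2 and Sfrp4 move away from 0, and Notum and Sfrp2 have no orange mark because they were not measured.

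In peripheral glia-like cells 16 members were measured, 5 higher (Fzd5, Fzd8, Rspo1, Sfrp1 and Sfrp4) and 2 lower (Frzb and Dkk3), against 15.2% and 14.2% of all 11919 genes measured. The members' median log2 ratio was 0.45 and that of all genes 0.03. Weighting the sub-gates alike left 1 higher (Fzd5, at 1.56) and 1 lower (Frzb, at -1.24). No share over all genes is given for that weighting, so these 2 counts describe the members alone. The clusters behind the class differed between the libraries: 1059 flox and 37 cKO peripheral glia-like cells were in cluster 0, and 48 flox and 712 cKO in cluster 1. Without these 1-library clusters 7 members were higher and 2 lower, with 17.8% and 13.2% over all genes. Rspo1 rested on 54 and 29 UMIs, and its ratio of 0.64 (-0.06 to 1.32) did not differ from 0 beyond counting error. Sfrp4, at 4.54 and 7.61 CPM (0.74, 0.25 to 1.23), rested on 99 and 57 UMIs. Summed satellite glia markers in these cells were at 4316 CPM in flox and 10533 CPM in cKO, all 5 found, and their part in the glial ratios was not tested.

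In neuron-like cells 30 members were measured, 5 higher (Wnt6, Fzd2, Fzd7, Fzd8 and Sfrp5) and 1 lower (Rspo2), against 9.27% and 4.35% of all 15051 genes measured. The medians were 0.10 for the members and -0.02 for all genes. Wnt6 was at 4.63 and 9.49 CPM (log2 ratio 1.04, 0.83 to 1.24), Fzd2 at 2.23 and 4.29 CPM (0.94, 0.64 to 1.25), Fzd7 at 1.14 and 2.15 CPM (0.91, 0.49 to 1.35), Fzd8 at 5.67 and 9.40 CPM (0.73, 0.54 to 0.93) and Sfrp5 at 11.6 and 18.4 CPM (0.67, 0.53 to 0.80). Each of these 5 was at a higher level in peripheral glia-like or fibroblast-like cells of the same library. Summed satellite glia markers in the neuron-like cells, all 5 found, were at 563.8 CPM in flox and 1303 CPM in cKO, and summed fibroblast markers, all 8 found, at 190.9 and 407.3 CPM. Their part in these 5 ratios was not tested. Neuron-like cells also differed in depth, with a median of 46669 UMIs in flox and 9346 in cKO. Among those with at least 10000 UMIs the same 5 members were higher and Rspo2 was lower (7.94% and 4.57% over all genes), with Wnt6 at 0.79 and Fzd2 at 0.61. Without the 1-library clusters 5 were higher and 2 lower (Wnt3 and Rspo2), with 8.42% and 4.44% over all genes.

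In endothelial-like cells 4 members were measured and Fzd4 was higher, against 18.8% of 6520 genes higher and 25.2% lower. Mural-like and macrophage-like cells had 1 measured member each, Lrp6, at log2 ratios of -0.30 and -0.49 and so under the 0.5 needed. Over all genes 16.9% were higher and 26.4% lower in mural-like cells, and 11.5% and 21.2% in macrophage-like cells.

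The rest of the pathway was read from 4 lists of genes outside the set. Of 13 beta-catenin targets 11 were measured in fibroblast-like cells, 8 lower and 2 higher (Myc, 0.75, and Ccnd1, 0.54), with a median log2 ratio of -1.71, against 18.3% lower and 8.53% higher over all genes. The lowest were Tnfrsf19, with 225 flox and 2 cKO UMIs (-5.90, -8.96 to -4.03), and Sp5, with 73 and 1 UMIs (-5.28, -10.6 to -2.75). Most of the lower ones had their highest level in cluster 17. Nkd1, a feedback inhibitor of the pathway, was at 126.2 CPM in cluster 17 and from 3.28 to 13.2 CPM in the other clusters of either library. Axin2, the most general target, was at 42.2 CPM there and from 1.33 to 9.26 CPM elsewhere. Apcdd1, another inhibitor, was at 121.8 CPM and at most 6.61 CPM elsewhere, Tnfrsf19 at 62.4 CPM and at most 3.23 CPM, and Sp5 at 20.5 CPM and at most 0.81 CPM. Lef1 did not follow this: it was at 24.0 CPM in cluster 17 and at 40.8 CPM in flox and 13.2 CPM in cKO cells of cluster 8. Ccnd1 was lower in cluster 17 (43.0 CPM) than in any other fibroblast cluster (216.2 to 537.4 CPM). Without the 1-library clusters 8 targets were measured, 1 lower (Lef1, -1.41) and 2 higher (Axin2, 0.79, and Myc, 0.53), with a median of 0.10.

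In peripheral glia-like cells 2 of 10 measured targets were higher and 2 lower, shares near the 15.2% and 14.2% over all genes. Axin2 was at 6.38 and 13.5 CPM (log2 ratio 1.08, 0.69 to 1.46) and Nkd2 at 5.92 and 9.21 CPM (0.64), while Nkd1 was at 142.1 and 63.8 CPM (-1.16, -1.30 to -1.02) and Apcdd1 at 5.97 and 2.002 CPM (-1.58). In neuron-like cells 3 of 11 measured targets were higher and 0 lower (9.27% and 4.35% over all genes), with Ccnd1 at 0.91, Axin2 at 0.74 and Lgr5 at 0.67, and Tcf7 (-0.33) and Myc (-0.20) lowest. Of the 19 intracellular genes, with 19 measured in neuron-like and in fibroblast-like cells and 18 in glia, 2 were higher in neuron-like cells (Tcf7l1, 0.87, and Dact1, 0.53), 2 higher in glia (Pygo1, 0.73, and Dvl3, 0.52) and 2 lower in fibroblast-like cells (Tcf7, -2.22, and Lef1, -1.71). The lowest intracellular genes were Dvl1 (-0.38) and Tcf7 (-0.33) in neuron-like cells and Dact3 (-0.30) and Tcf7 (-0.17) in glia, and the highest in fibroblast-like cells were Pygo2 (0.32) and Apc (0.31). Beta-catenin itself, Ctnnb1, was at 228.4 and 227.8 CPM in fibroblast-like cells.

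The shares over all genes given above apply to the next lists too. Of the other receptors and co-receptors, 2 of 12 measured were higher in neuron-like cells (Lgr4, an R-spondin receptor, 0.87, and Lgr5, 0.67), 2 of 10 in peripheral glia-like cells (Celsr1, 0.66, and Vangl2, 0.56), and 3 of 8 were lower in fibroblast-like cells (Ptk7, -1.45, Ror2, -0.60, and Lgr4, -0.59). The list's lowest genes were Lgr6 (-0.50) and Ptk7 (-0.43) in neuron-like and Lgr6 (-0.37) and Ryk (-0.21) in peripheral glia-like cells, and its highest in fibroblast-like cells were Gpc4 (0.37) and Ror1 (-0.04). Without the 1-library clusters Ptk7 (-0.84) and Vangl1 (-0.56) were the lower ones. Of the secretion genes and other extracellular regulators, 3 of 8 measured were lower in fibroblast-like cells (Apcdd1, -3.03, Sostdc1, -0.65, and Tpbg, -0.52), and only Sostdc1 (-0.51) without those clusters. In peripheral glia-like cells 3 of 8 were lower (Apcdd1, Cthrc1, -0.91, and Kremen1, -0.63), with Wls (0.48) and Znrf3 (0.37) highest. Without the 1-library clusters 3 were higher there (Tpbg, 0.75, Znrf3, 0.56, and Wls, 0.55) and the same 3 lower, and the list's median was 0.21 in place of 0.02. In neuron-like cells Dkkl1 was lower (-0.77), Porcn was at -0.37, and Sostdc1 (0.78) and Draxin (0.52) higher among 11 measured. Wls, the carrier that every Wnt needs to leave the cell, was at 146.1 and 104.7 CPM in fibroblast-like and 15.1 and 21.1 CPM in peripheral glia-like cells.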

How the data were processed

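The deposited matrices hold whole-number UMI counts per gene and cell barcode, 10014 flox and 9703 cKO barcodes, with 132620886 and 78144437 UMIs. Per the file headers they were made with cellranger 6.1.2, while the submitters' processing notes name Cell Ranger 5.0.1, Scanpy and mm10. The sources used here do not say whether intronic reads were counted, or free RNA or doublets removed.

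Barcodes needed 1000 UMIs, 500 genes and no more than 15% mitochondrial UMIs, which 8714 flox and 8435 cKO barcodes had. Scrublet's own threshold called 0 and 2 doublets, so a share of 0.8% per 1000 cells was removed by score (607 and 569 cells). A class score is the mean over its markers of the level, capped at 1, relative to the top 1% of cells. It had to reach 0.12 (0.08 for glia, 0.15 for sub-gates, 0.05 for peripheral sensory markers). In a cell that met at least 2 class gates, the top score relative to its gate also had to be 2 times the next. These values were set after seeing the score distributions, but no member value was used to set them. Cells that met at least 2 gates without that margin (225 flox, 116 cKO) or met none (714, 1180) entered no class. Of all cells, 14.6% and 16.9% lay within 1/3 of a gate's value. Every named class and sub-gate had at least 3 markers in 25% of its cells. Neurons gated by Sst, Nppb and Il31ra, and those without peripheral markers, stayed unnamed.

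Clusters used 2000 variable genes without the members, 30 components, 15 neighbours and Leiden resolution 1.0, both libraries together. UMIs were summed per class, with exact Poisson, Clopper-Pearson and conditional binomial 95% intervals. No model was fitted. TMM (edgeR 4.0.16) and DESeq2 1.42.0 size factors were alternatives, and both were computed from the deposited counts. The intervals were tested on simulated data. Python 3.11.15, scanpy 1.11.5, leidenalg 0.10.2 and R 4.3.3 were used. Positions came from GENCODE vM21 on GRCm38 and promoters from RefSeq on GRCm38.p6.

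The members and lists were chosen with earlier results of these data known. Named in full are members with at least 100 UMIs in a class, the 5 at the highest level per class and those past 0.5 log2, and from each pathway list the 2 highest and 2 lowest ratios. Values within fibroblast clusters, and the alternatives without 1-library clusters, with neurons of at least 10000 UMIs and with sub-gates weighted alike, were chosen after seeing the data. Dkk3 and Notum, listed in the pathway lists, are members and were left out of those counts.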

Additional observations from a re-analysis of the deposited data

Results flagged for a closer look

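2 members were at least 0.5 log2 higher in the cKO library in one class and at least 0.5 log2 lower in another, each with an interval that excluded 0. Sfrp4, a secreted Frizzled-related protein, had a log2 ratio of 0.74 in peripheral glia-like cells and -0.68 in fibroblast-like cells. Wnt6 had a log2 ratio of 1.04 in neuron-like cells and -0.95 in fibroblast-like cells. With the sub-gates weighted alike the glial Sfrp4 ratio was not past 0.5. Summed satellite glia markers in the neuron-like cells were at 563.8 CPM in flox and 1303 CPM in cKO. Among fibroblast-like cells Wnt6 was lower in cluster 8, but did not differ beyond counting error in clusters 9 and 12. The part of makeup in these ratios was not tested. With 1 library per genotype the difference between the classes was not tested.

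3 glial members were also found in cells that passed no gate and so entered no comparison, at a level above that of every whole gated class of the same library, though not above every glial sub-gate. Sfrp1 was at 156 CPM in flox and 193 CPM in cKO ungated cells, Sfrp5 at 168 CPM and Wnt6 at 172 CPM in flox ungated cells. By cluster, 492 of the 714 flox and 967 of the 1180 cKO ungated cells lay in peripheral glia clusters.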

How the results depend on the processing

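No paired analysis was possible because each genotype has 1 library. For the same reason no replicate could be left out, and sampling of animals is not covered by any interval. Of 76 member ratios in neuron-like, peripheral glia-like and fibroblast-like cells 27 were at least 0.5 log2, and 25 of these kept their sign under every alternative. The 2 others were the Fzd8 log2 ratio in fibroblast-like cells (-0.24) and the Lrp5 log2 ratio in fibroblast-like cells (-0.0654), both after thinning each cell to 1000 UMIs. TMM and DESeq2 factors left all 76 ratios within their counting intervals. Other alternatives moved the size of many ratios. After thinning 40 moved, 2 reversed and 30 stayed the same. Averaging CPM over cells moved 29, leaving out the 1-library clusters 20, and weighting the sub-gates alike 14. Each remaining alternative moved at most 4.

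Thinning left 2 members higher and 4 lower in neuron-like cells, 0 and 1 in peripheral glia-like cells, and 0 higher in fibroblast-like cells. Averaging CPM over cells in place of summing UMIs gave 6 lower in neuron-like, 2 higher in peripheral glia-like and 1 higher in fibroblast-like cells. Without doublet removal 2 were lower in neuron-like cells, and likewise 2 without the 1-library clusters. Weighting glial sub-gates alike gave 1 higher and 1 lower. Measuring from 20 UMIs gave 5 lower in glia. Measuring from 1 UMI gave 11 higher and 5 lower in neuron-like cells, 17 and 12 in glia, and 19 lower in fibroblast-like cells. A limit of 1 log2 gave 1 higher and 0 lower in neuron-like cells, 1 and 1 in glia, and 1 and 5 in fibroblast-like cells. Except without the 1-library clusters, no share over all genes is given for these settings. The counts therefore describe the members alone and cannot be set against all genes. The limit of 50 UMIs was a choice: some members below it, such as mural-like Wnt5b (40 and 5 UMIs), had intervals that excluded 0.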
